A study of Mus musculus with 15 samples.

Results

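The genes described here carry glucose into the cell and through glycolysis to pyruvate and lactate, and through the pentose phosphate pathway beside it. They were chosen by name as 37 rows of each deposited table, out of 20723 genes listed in any of the 4 tables. All 37 had a row in every table. A gene was tested where its normalized count was at least 10 in 3 or more libraries of a table, which 35 of the 37 passed for untreated 36N and 36S, 35 for untreated KD and 36S, 36 for 36N with and without temozolomide, and 37 for 36N and 36S with temozolomide.

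Glycolysis splits glucose into pyruvate and yields ATP, and the pentose phosphate pathway draws on the same glucose phosphate to make NADPH and ribose. Most steps have several genes with different tissue patterns, so a cell can change the enzyme without changing the step. The transcription factor HIF1A raises many of these genes at low oxygen, and dividing blood and leukemia cells are known for high glucose use with release of lactate.

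RNA was sequenced from total bone marrow of leukemic C57BL/6 mice in 15 libraries, 3 in each of 5 groups. All groups shared the MLL-AF9 fusion oncogene and a GFP reporter, carried by a retrovirus into lineage-depleted donor marrow. GFP-positive cells had been sorted and given to mice irradiated with 7 and 3 Gy, passed on through mice given 3 Gy, and taken from the quaternary recipients. The donors' Gfi1 locus held a modified GFI1, a zinc finger repressor needed by blood stem cells and for granulocytes to form. The groups were 36N cells (GFI1 36N/36N, the 36N variant of the human gene) with temozolomide, 36S cells (GFI1 KI/KI, the human gene in mouse) with temozolomide, and the untreated KD (GFI1 KD/KD, the human gene at 10 to 20% of its level), 36N and 36S cells. Temozolomide (TMZ), a drug that methylates DNA, was given at 50 µg/ml, 20 h before RNA isolation. The labels do not say whether untreated cells were also held for 20 h. They do not give the animals' age, nor whether all mice of a group were traced to 1 first leukemia, so p-values measure only the spread between these samples. Untreated libraries are numbered 1 to 3 (36S), 4 to 6 (36N) and 7 to 9 (KD), and TMZ libraries 1 to 3 (36S) and 4 to 6 (36N).

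Column totals of normalized counts lay between 11265945 and 24264818, and read depth is unknown. Mouse Gfi1 was analysed in the table of 36N with and without TMZ, at 723, 504 and 555 normalized counts with TMZ and 505, 565 and 367 untreated, and it does not check the labels because the modified alleles carry the human gene. The TMZ libraries stood apart from the untreated ones in several lists of genes that mark cell types. Of 8 markers of mast cells, basophils and eosinophils, 8 were higher with TMZ in 36N, with a summed normalized count of 83309 to 245817 against 285 to 1044 untreated, and Fcer1a was listed at 0 in all 3 untreated libraries. Of 5 megakaryocyte markers 5 were higher, with sums of 28899 to 56717 against 33.5 to 65.2 untreated. Markers near 0 untreated, such as Fcer1a, passed the filter only through the TMZ libraries and could only be called higher. Of 6 B and plasma cell markers tested 6 were lower. Of 14 monocyte and macrophage markers 4 were higher and 7 lower, and of 12 neutrophil markers 1 was higher and 3 were lower. Of 10 erythroid markers tested 4 were higher and 0 lower. Of 6 T and NK cell markers tested 2 were higher and 3 lower, with sums of 6360 to 9040 against 178 to 260 untreated. Of 6 genes known from MLL-AF9 leukemia 5 were lower and 1 was higher. Their summed counts overlapped, at 11732 to 19081 with TMZ against 11289 to 16220 untreated. Flt3 was among the lower ones, at 31.5, 22.1 and 7.37 with TMZ against 2583, 3347 and 1638 untreated. Over all genes tested in this comparison, 36.3% were higher and 33.5% lower. The Y-linked gene Ddx3y was listed at 0 in TMZ libraries 5 (36N) and 2 (36S), and at 1094 in untreated 36N library 5. In bulk RNA, fewer cells of a type and less RNA per cell cannot be told apart. The cell makeup of the TMZ libraries and TMZ itself cannot be told apart in the results below.

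Among untreated 36S libraries the level per kilobase of annotated exon was highest for Gapdh, whose enzyme oxidizes glyceraldehyde phosphate, at a mean of 13232 normalized counts per kb (range 11741 to 14856). Pgam1 (2444 per kb), Pkm (2062), Aldoa (1922) and Gpi1 (1595) came next, and the ranges of Pkm (1956 to 2133) and Aldoa (1732 to 2075) overlapped, as did those of Aldoa and Gpi1 (1448 to 1829). These levels come from the untreated table, and the gene-specific factors between tables described below bear on their order. Among the hexokinase genes, Hk3, the hexokinase of myeloid cells, stood at 667 per kb, above Hk1 at 271 and Hk2 at 171. The per kb ranges of the 3 did not overlap. Before division by length, the normalized counts of Hk3 (2126 to 2643) and Hk1 (2221 to 2372) overlapped. The order of Hk3 and Hk1 therefore rests on their annotated exon lengths, 3682 and 8532 bases, and the transcript lengths in these cells are unknown. Ldha, whose subunit favours lactate, stood at 1195 per kb and Ldhb at 17.9. Eno1, the enolase of most tissues, stood at 999 per kb, Eno3 of muscle at 32.2 and Eno2 of neurons at 0.726. The pyruvate kinase gene of liver and red cells, Pklr, stood at 1.20. The pyruvate dehydrogenase kinases Pdk3 (94.6 per kb) and Pdk2 (86.2) had overlapping ranges, as had Pdk2 and Pdk1 (75.2). RNA of the glucose transporter genes Slc2a1 (GLUT1) and Slc2a3 (GLUT3) stood at 107 and 28.4 per kb, and that of the lactate exporter gene Slc16a3 (MCT4) at 113.

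Promoter windows from 250 bases before to 50 after a start were found for 36 of the 37 genes in the RefSeq table (GRCm38.p6). Slc2a3 is the gene with no entry. The windows were searched for ACGTG, the core letters of the hypoxia response element that HIF factors bind, and for CACGTG, the E-box that MYC binds and that contains the same letters, on both strands. The core letters stood in a window of 20 of 36 genes (55.6%), against 21.8% of 27025 genes in the table. The E-box letters stood in 7 of 36 (19.4%), against 8.09%. Among genes called in the TMZ comparison below, the core letters stood in 12 of 20 genes that were higher and in 5 of 5 that were lower, and in 3 of the other 11. A match is a description and does not show that a factor binds. The windows of 5 genes whose levels are described below are given 5′ to 3′, with the core or E-box letters on either strand in capitals, because they show how differently the letters are placed. Slc2a1, Slc16a3, Ldha and Pgk1 were higher with TMZ, and G6pdx was lower with TMZ and higher in KD.
Slc2a1, chr4:119108495-119108794, plus strand: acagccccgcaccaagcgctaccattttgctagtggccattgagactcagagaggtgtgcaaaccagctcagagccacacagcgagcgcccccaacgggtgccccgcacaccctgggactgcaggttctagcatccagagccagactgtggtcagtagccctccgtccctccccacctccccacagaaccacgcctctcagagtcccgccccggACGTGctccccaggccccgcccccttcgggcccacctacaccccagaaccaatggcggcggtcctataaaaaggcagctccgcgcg
Slc16a3, chr11:120948817-120949116, plus strand: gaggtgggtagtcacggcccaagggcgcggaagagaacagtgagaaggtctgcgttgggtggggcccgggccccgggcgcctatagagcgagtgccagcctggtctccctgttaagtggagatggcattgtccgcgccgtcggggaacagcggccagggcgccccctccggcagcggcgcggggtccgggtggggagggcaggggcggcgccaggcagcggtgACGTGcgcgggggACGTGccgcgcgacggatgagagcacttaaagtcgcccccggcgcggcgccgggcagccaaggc
Ldha, chr7:46845554-46845853, plus strand: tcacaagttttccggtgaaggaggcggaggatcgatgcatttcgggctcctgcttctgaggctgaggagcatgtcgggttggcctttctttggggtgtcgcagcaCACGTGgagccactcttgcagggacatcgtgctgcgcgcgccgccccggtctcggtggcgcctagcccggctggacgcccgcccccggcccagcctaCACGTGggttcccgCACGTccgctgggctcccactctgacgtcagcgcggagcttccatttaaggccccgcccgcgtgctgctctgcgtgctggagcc
Pgk1, chrX:106186850-106187149, plus strand: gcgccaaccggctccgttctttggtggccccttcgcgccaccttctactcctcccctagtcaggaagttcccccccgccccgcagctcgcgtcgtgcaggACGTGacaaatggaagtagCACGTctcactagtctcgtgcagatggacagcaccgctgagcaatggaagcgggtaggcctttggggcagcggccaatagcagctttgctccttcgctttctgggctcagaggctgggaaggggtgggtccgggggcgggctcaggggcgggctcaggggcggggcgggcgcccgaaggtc
G6pdx, chrX:74428831-74429130, minus strand: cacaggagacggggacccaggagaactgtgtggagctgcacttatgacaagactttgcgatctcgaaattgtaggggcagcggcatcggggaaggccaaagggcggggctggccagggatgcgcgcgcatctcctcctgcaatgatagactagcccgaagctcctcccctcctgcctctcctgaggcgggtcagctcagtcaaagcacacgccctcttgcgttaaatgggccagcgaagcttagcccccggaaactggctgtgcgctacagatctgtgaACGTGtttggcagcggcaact
The Ldha window held 2 E-boxes and 1 further core, and the Slc16a3 window held 2 cores close to its start. The Pgk1 window held 1 core on each strand, and the Slc2a1 and G6pdx windows held 1 each.

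The first comparison asked which genes differed after TMZ in 36N cells. With TMZ most of the glycolytic chain was higher, from both glucose transporters to both lactate exporters, while Gapdh, Hk3, Pdk2 and the pentose phosphate entry enzyme gene G6pdx were lower. Of 36 genes tested 26 passed an adjusted p of 0.05 in limma-trend on log2(normalized count + 1), 21 higher and 5 lower, and 22 of the 26 changed at least 2-fold. Of all 14390 genes tested 69.7% passed, 36.3% higher and 33.5% lower, so the count of 26 (72.2%) was near the background. The higher calls were 58.3% of the genes tested here. Their median log2 fold change was 1.01, beside 0.06 over all genes tested, and with all libraries scaled to equal totals these medians were 0.86 and -0.09.

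**Figure D1:**
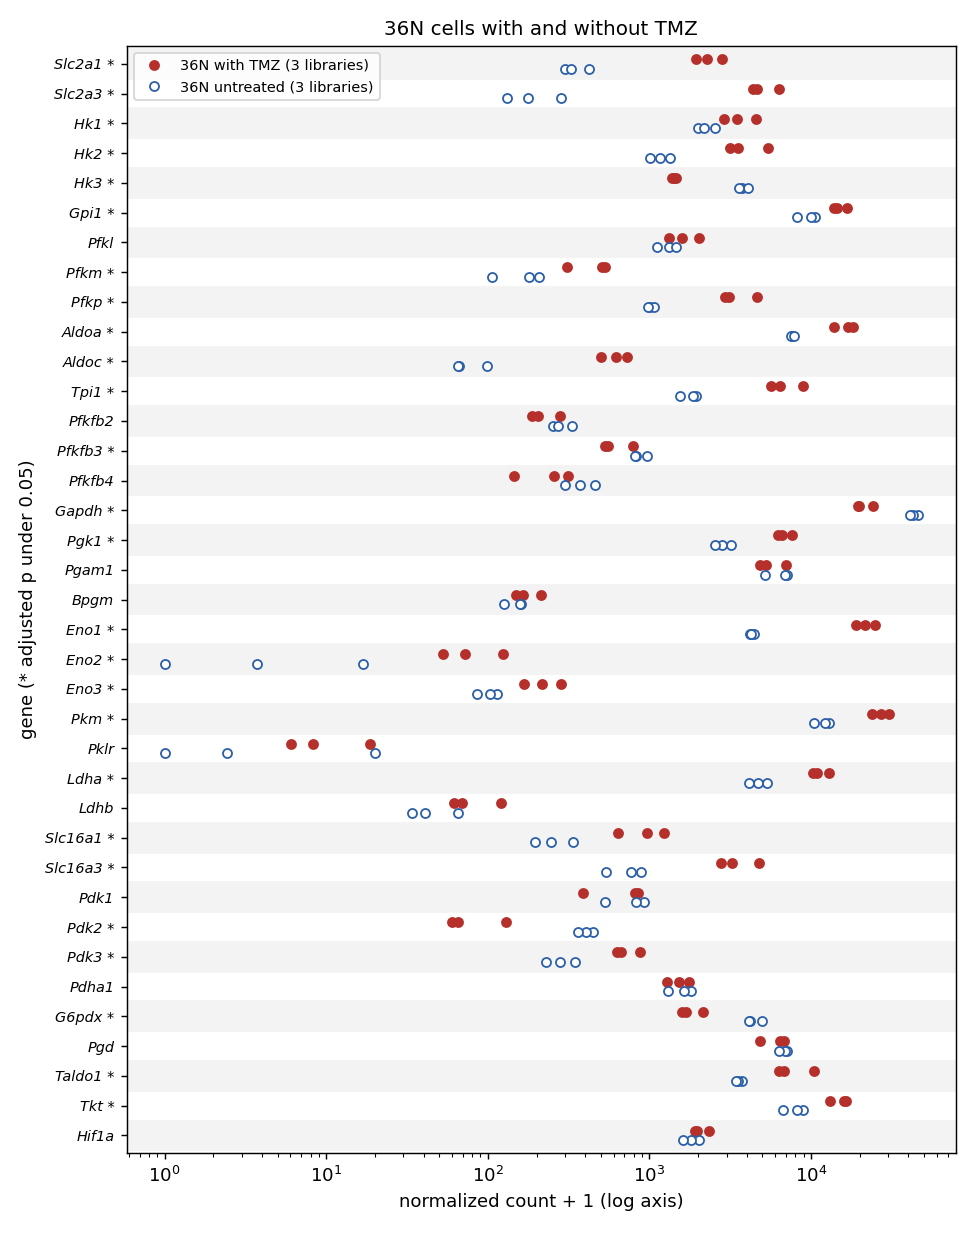
Normalized count + 1 (log axis) of the 37 genes in each 36N library with TMZ (filled, upper row of a gene) and untreated (open, lower row), with an asterisk where the adjusted p in limma-trend was under 0.05. Slc2a3, Eno2 and Aldoc lie furthest to the right of their untreated libraries, and Pdk2, Hk3, G6pdx and Gapdh lie to the left. Eno2 passed the filter only through its TMZ libraries.

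Both glucose transporter genes were higher. Slc2a3 (chromosome 6, 122727809 to 122801640), a high-affinity glucose carrier, stood at 4381, 6319 and 4632 normalized counts with TMZ against 281, 131 and 177 untreated. This 26.9-fold increase had a log2 fold change of 4.75 (SE 0.28, adjusted p = 7.3e-06). Slc2a1 (chromosome 4, 119108711 to 119137983), the carrier of basal glucose uptake, stood at 2792, 2261 and 1946 with TMZ against 419, 299 and 327 untreated (log2 fold change 2.74, SE 0.19, adjusted p = 1.3e-05). In both genes every TMZ library lay above every untreated one. Groups did not overlap in 74.5% of all genes tested. The log2 ratio of their normalized counts, Slc2a3 to Slc2a1, was 1.13 ± 0.43 with TMZ and -0.88 ± 0.31 untreated (SD, n = 3 each).

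The hexokinases, which trap glucose as glucose phosphate, did not move together. Hk2, the form raised in many cancers, stood at 3508, 3164 and 5377 with TMZ against 1012, 1161 and 1331 untreated (log2 fold change 1.75, adjusted p = 2.1e-04). Hk1, the form of most tissues, stood at 3462, 4529 and 2898 against 2002, 2536 and 2166 (0.68, adjusted p = 0.011). In these 2 genes the TMZ and untreated libraries did not overlap, as was so for 74.5% of all genes tested. Hk3 went the other way, at 1375, 1416 and 1460.2 with TMZ against 3751, 4049.5 and 3599.6 untreated, which is 2.68-fold lower (log2 fold change -1.42, SE 0.10, adjusted p = 1.7e-05). The log2 ratio of Hk3 to Hk1 was -1.33 ± 0.34 with TMZ and 0.77 ± 0.12 untreated (SD, n = 3 each).

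Of the 7 genes of upper glycolysis, 6 rose and Pfkl did not pass. Aldoc, the aldolase of brain, stood at 729.6, 502 and 621 with TMZ against 65.4, 64.3 and 97.6 untreated, an 8.12-fold increase (log2 fold change 3.02, SE 0.25, adjusted p = 3.0e-05). Tpi1, triose phosphate isomerase, stood at 8884, 6433 and 5664 against 1939, 1858 and 1549 (1.95, adjusted p = 6.1e-05). The groups did not overlap in either gene, as was so for 74.5% of all genes tested. Aldoa, the aldolase of most tissues, stood at 18196, 13796 and 16882 with TMZ against 7609, 7543 and 7877 untreated (1.08, adjusted p = 2.7e-04). Gpi1, which turns glucose phosphate into fructose phosphate, stood at 16693, 13831 and 14385 against 10503, 9922 and 8166 (0.65, adjusted p = 0.0047). These were smaller steps in genes with far higher counts. The 3 phosphofructokinase genes encode the committed step. Pfkp (platelet form) stood at 3103, 2948 and 4603 with TMZ against 1004, 1062 and 983 untreated (log2 fold change 1.77, adjusted p = 8.1e-05). Pfkm (muscle form) stood at 506, 533 and 306 against 207, 179.5 and 104 (1.46, adjusted p = 0.0047). Pfkl (liver form), at 2025, 1587 and 1322 against 1317, 1109 and 1448, overlapped between groups (0.34, adjusted p = 0.13).

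The PFKFB enzymes make and remove the sugar phosphate that activates phosphofructokinase. None of the 3 rose. Pfkfb3 stood at 794, 553 and 531 with TMZ against 828, 971 and 815 untreated (log2 fold change -0.50, SE 0.18, adjusted p = 0.041). The call was lost on leaving out TMZ library 5 (adjusted p = 0.11) or 6 (0.11) or untreated library 4 (0.077), 5 (0.14) or 6 (0.066), without the mean-variance trend (0.069), and with a block by library number (adjusted p = 0.052). Pfkfb2 and Pfkfb4 did not pass, with log2 fold changes of -0.36 and -0.71.

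In lower glycolysis, which yields the ATP, 5 of 8 genes tested rose and Gapdh fell. Eno1 (chromosome 4, 150236721 to 150248879) stood at 24673, 21674 and 19015 with TMZ against 4437, 4199 and 4229.7 untreated, a 5.05-fold increase (log2 fold change 2.34, SE 0.13, adjusted p = 5.5e-06). Its near-identical copy Eno1b went the opposite way, at 10.3, 51.1 and 92.6 against 1375, 1293 and 1343, and the reads of the pair may be split between them. With the pair summed the log2 fold change was 1.95 (adjusted p = 1.3e-05). Pgk1, phosphoglycerate kinase, stood at 7625, 6206 and 6627 with TMZ against 3173, 2807 and 2554 untreated (1.26, adjusted p = 9.9e-05). Its copy Pgk1-rs7 was at 607, 539 and 163 against 0 in all 3 untreated libraries, and the sum of the pair had a log2 fold change of 1.35. Pkm, the pyruvate kinase of proliferating cells and muscle, stood at 30394, 26900.0 and 23776 against 12814, 12113 and 10461 (1.19, adjusted p = 2.6e-04). For these genes the TMZ libraries all lay above the untreated ones. In 74.5% of all genes tested the groups did not overlap. Gapdh (chromosome 6, 125161715 to 125166467) stood at 24026, 19536 and 19806 with TMZ against 45731, 42788 and 40961 untreated, 2.05-fold lower (log2 fold change -1.04, SE 0.15, adjusted p = 5.6e-04). Eno3 stood at 283, 167 and 215 with TMZ against 85.2, 114 and 103 untreated (1.11, adjusted p = 0.0062). Eno2 was low, at 123, 71.5 and 51.9 with TMZ against 2.73, 0 and 15.8 untreated. Its log2 fold change of 4.30 (SE 0.95, adjusted p = 0.0045) depends on the pseudocount and was 3.15 with a pseudocount of 5. Eno2 passed the filter only through its TMZ libraries, so the direction of this call was set by the filter. It is counted among the 21 genes that were higher. Pgam1 (-0.18) and Bpgm (0.24) did not pass, and Pklr was below the filter at 17.6, 5.03 and 7.29 against 0, 1.45 and 19.0.

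At the end of the chain, Ldha (chromosome 7, 46841475 to 46855627) stood at 12873, 10288 and 10907 with TMZ against 5360.1, 4714 and 4141 untreated (log2 fold change 1.26, SE 0.14, adjusted p = 1.6e-04). Slc16a3, the lactate exporter of glycolytic cells, stood at 4781, 2750.0 and 3261 against 534, 771 and 887, a 4.89-fold increase (2.29, SE 0.25, adjusted p = 1.4e-04). Slc16a1 (MCT1), which carries lactate either way, stood at 962, 1225 and 641 against 337, 246 and 195 (1.84, adjusted p = 7.8e-04). The TMZ and untreated libraries did not overlap in any of the 3, nor in 74.5% of all genes tested. Ldhb, whose subunit favours pyruvate, did not pass at 119, 68.6 and 60.8 against 64.2, 33.0 and 40.0 (0.84, adjusted p = 0.085).

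The kinases that switch off pyruvate dehydrogenase, the gate between glycolysis and mitochondria, split 3 ways. Pdk2 stood at 64.7, 59.2 and 128 with TMZ against 448, 403 and 358 untreated, 5.03-fold lower (log2 fold change -2.33, SE 0.32, adjusted p = 3.8e-04). Pdk3 stood at 664, 629 and 868 against 227, 347 and 277 (1.35, adjusted p = 7.5e-04). Pdk1, a known HIF target, overlapped between groups at 843, 814 and 387 against 917, 821 and 532 (-0.20, adjusted p = 0.62). Pdha1, a subunit of the dehydrogenase itself, did not pass (-0.06).

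Of the 4 pentose phosphate genes 1 was lower, 2 were higher and 1 did not pass. G6pdx (chromosome X, 74409483 to 74429194), the rate-limiting entry that makes NADPH, stood at 2136, 1680.2 and 1587 with TMZ against 4197, 4137 and 4999 untreated, 2.48-fold lower (log2 fold change -1.31, SE 0.15, adjusted p = 1.5e-04). Pgd, the other NADPH step, did not pass at 6437, 4796 and 6834 against 7099.5, 6930.4 and 6371 (-0.19, adjusted p = 0.30). Taldo1 and Tkt encode non-oxidative enzymes, which exchange sugars with glycolysis. Taldo1 (transaldolase) stood at 6837, 6293 and 10418 against 3743, 3540.1 and 3424 (1.10, adjusted p = 0.0014), and Tkt (transketolase) at 15938, 16433 and 13149.7 against 8891, 8215 and 6671 (0.94, adjusted p = 0.0011). The increase of Tkt was not kept with the factor between tables undone, as described below, at -0.034. Hif1a itself stood at 2348, 1965 and 1910.2 with TMZ against 2017, 1801 and 1603 untreated and did not pass (0.20, adjusted p = 0.22).

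The size of these changes depends on how the tables were made. The untreated 36N libraries are also in the untreated table and the TMZ libraries also in the TMZ table, and the ratio of a gene's value between tables was nearly the same in all libraries but differed from gene to gene. Over 11275 genes the median SD of this factor across the libraries of a gene was 0.0043 (untreated) and 0.015 (TMZ) on the log2 scale, while its SD over genes was 0.35 and 0.34. The untreated factor was taken from the untreated table to the shared one, and the TMZ factor from the shared one to the TMZ table. They correlated at r = 0.88 over these genes, so they add up in this comparison. Values from the other tables come from 2 separately scaled tables. To undo the factor, both factors of a gene, averaged over libraries, were summed and centred on the median over the 11275 genes. The centred sum was applied to the gene's TMZ values. These genes had at least 10 in every library used. The direction of changes near 0 in this version depends on the centring. Which of the values lies nearer to the transcripts was not tested. With the factor undone in this way, 35 of the 37 genes could be compared and 23 passed, 19 higher and 4 lower, among them 21 of the 26. Gpi1 (log2 fold change 0.05), Eno3 (0.41), Pfkfb3 (-0.22) and Tkt (-0.034) no longer passed, Eno2 could not be compared, and Hif1a (0.60, adjusted p = 0.0056) and Pfkl (0.94) now passed. Gapdh fell further to a log2 fold change of -2.42, while Eno1 (0.98), Aldoc (1.49) and Slc2a3 (3.73) had smaller increases, as had Tpi1 (0.98) and Hk2 (1.06). Larger changes were found for Pgk1 (1.92), Slc16a1 (2.50), Slc16a3 (2.74) and Ldha (1.54), and for Pdk2 (-3.05). The median over the genes was 0.82 in this version, beside -0.06 over all genes.

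**Figure D2:**
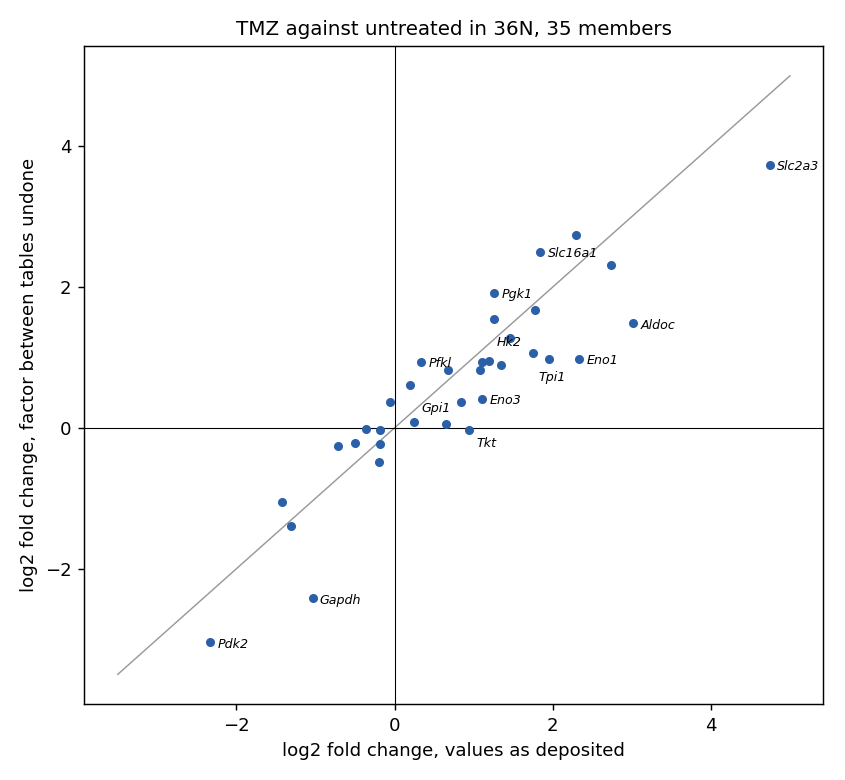
Log2 fold change with TMZ in 36N for 35 genes from the deposited values (horizontal axis) and after the gene-specific factor between tables was undone (vertical axis), with the line of equality. Genes that move by 0.6 or more are named. Slc2a3 stays at the upper right, Gapdh moves down to -2.42, and Gpi1 and Tkt move to near 0.

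Related genes outside the list were read from further lists, and their counts stand beside the 36.3% of all genes tested that were higher and the 33.5% that were lower. Of 17 tested HIF targets outside glycolysis, 13 were higher and 1 lower with TMZ, with a median log2 fold change of 1.20. Vegfa, a vessel growth factor, stood at 1417, 1022 and 994 with TMZ against 121, 183 and 139 untreated (2.95, adjusted p = 2.0e-05). Bhlhe40, a transcriptional repressor, stood at 1216, 1443 and 1330 against 99.3, 94.9 and 71.0 (3.91, adjusted p = 2.9e-06). Of 8 HIF regulators 2 were higher, among them Vhl (2.26), which marks HIF proteins for destruction, and 3 were lower, among them Hif1an (-1.51) and Arnt (-0.98), the partner of HIF1A. Of 8 other sugar transporters and hexose kinases 3 rose and 3 fell. Slc2a6 was among the higher ones (2.68), and Slc2a5, a fructose carrier, among the lower (-4.86). Of 12 other glycolysis genes 4 rose, among them Bsg (1.68), the chaperone of lactate exporters, and 4 fell, among them Fbp1 (-4.46), which runs the phosphofructokinase step backwards. Of 13 other pentose phosphate and NADPH genes 4 rose and 7 fell, with Rpia, which makes ribose phosphate, at 1.56. Of 9 other pyruvate dehydrogenase and carrier genes 3 rose and 2 fell.

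The second comparison asked what differed in untreated cells at low GFI1. KD cells had more Ldhb, G6pdx and Pdk2 and less Hk1, Pfkfb3 and Slc16a3 than 36S cells. Of 35 genes tested these 6 passed in limma-trend (3 higher, 3 lower), which is 17.1%, beside 11.5% of all 13109 genes tested, 6.61% higher and 4.86% lower. The median log2 fold change was 0.07, beside -0.01 over all genes. With equal totals the median of all genes moved to -0.13, 8 of the 35 passed, 2 higher and 6 lower, and the calls over all genes were 605 higher and 936 lower in place of 866 and 637.

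Ldhb (chromosome 6, 142490249 to 142507957) stood at 177, 100.3 and 134 normalized counts in KD against 37.4, 23.9 and 23.1 in 36S, a 4.72-fold increase (log2 fold change 2.24, SE 0.31, adjusted p = 0.0021). Ldha, the abundant partner, stood at 3116, 2248 and 3116 against 4459, 3639.5 and 3766 and missed the threshold (-0.50, adjusted p = 0.087). It passed with equal totals (-0.62, adjusted p = 0.025). The groups did not overlap in either gene, nor in 31.5% of all genes tested. The log2 ratio of Ldhb to Ldha was -4.38 ± 0.21 in KD and -7.11 ± 0.23 in 36S (SD, n = 3 each). G6pdx stood at 4042, 3735 and 4064 in KD against 2420.0, 2328 and 2255 in 36S, 1.69-fold higher (0.76, SE 0.12, adjusted p = 0.0041). The next enzyme, Pgd, stood at 6808, 5871 and 6951 against 5084, 4691 and 4449 and missed the threshold (0.46, adjusted p = 0.059). Hk1 (chromosome 10, 62268855 to 62379908) stood at 1308, 1379 and 1112 against 2372, 2221 and 2350.3, 1.83-fold lower (-0.87, SE 0.13, adjusted p = 0.0030). Ldhb, G6pdx and Hk1 passed in every alternative tried for KD.

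Pfkfb3, the PFKFB form with the strongest kinase activity, stood at 336, 469 and 451 in KD against 702, 852 and 749 in 36S (log2 fold change -0.88, SE 0.17, adjusted p = 0.0091). Without 36S library 2 it had an adjusted p of 0.059. Pdk2 stood at 439, 440.1 and 515 against 228, 253 and 337 (0.78, SE 0.18, adjusted p = 0.022). Its call was lost without KD library 7 (adjusted p = 0.052) or 9 (0.10), or 36S library 1 (0.063) or 2 (0.10), with equal totals (0.054) and without the trend (0.057). Slc16a3 stood at 349, 429 and 424 in KD against 667, 609 and 530.0 in 36S (-0.59, SE 0.15, adjusted p = 0.038). It was lost without KD library 7 (0.11) or 9 (0.095), or 36S library 1 (0.12), 2 (0.15) or 3 (0.052), without the trend (0.080), and with all 9 untreated libraries in 1 fit (0.062). KD and 36S libraries did not overlap in these 3 genes, as was so for 31.5% of all genes tested. KD library 8 lay below libraries 7 and 9 in Gapdh, at 52545 against 74345 and 73482, and in Pgk1, Gpi1, Tpi1 and Taldo1. Without it 9 genes passed, adding Pgam1, Pgd and Taldo1, and without 36S library 2 the count was 3.

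Beside these values, the monocyte and macrophage markers were higher in KD for 10 of 14 genes, with a summed normalized count of 101319 to 156271 against 49127 to 54773 in 36S. Over all genes tested 6.61% were higher and 4.86% lower. T and NK cell markers were higher for 4 of 7 genes tested, with sums of 205 to 647 against 67.6 to 168. Among those tested, Cd3g, Gzma, Gzmb and Trbc2 were under 10 in every 36S library. They passed the filter only through KD and could only be called higher. Neutrophil markers were lower for 5 of 12 and higher for 1, with sums of 40875 to 56757 against 69710.5 to 208609. Markers of mast cells, basophils and eosinophils were higher for 3 of 6 and lower for 1. Their sums were 2142 to 3760 against 444 to 873. The lower one, Ms4a2, was under 10 in every KD library, passed the filter only through 36S and could only be called lower. B and plasma cell markers were lower for 2 of 7, Igkc and Jchain. The part of these cells in the results was not tested. Named genes that did not pass were Slc2a1 (log2 fold change 0.07, -0.046 with equal totals), Hk2 (0.15), Hk3 (-0.15), Gapdh (0.28, -0.016 after quantile normalization), Pkm (0.09, -0.031 with equal totals and -0.055 after quantile normalization) and Hif1a (0.25). The other genes tested lay between log2 fold changes of -0.71 (Aldoc) and 0.76 (Pfkfb4).

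**Figure D3:**
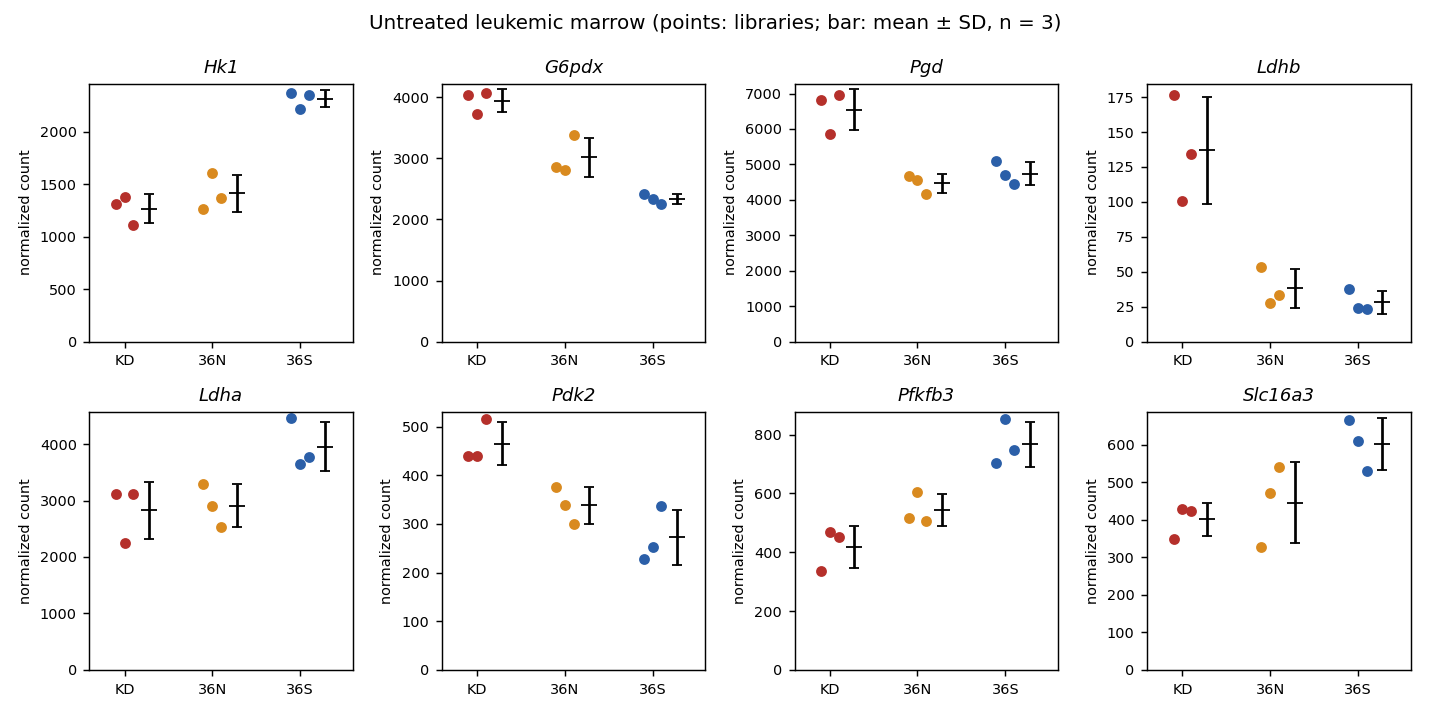
Normalized counts of 8 genes in untreated KD, 36N and 36S libraries (points, left to right), with mean ± SD beside them (n = 3); each axis starts at 0. Hk1 and Pfkfb3 lie lower and G6pdx higher in KD than in 36S, and Ldhb lies between 100.3 and 177 in KD and under 54 elsewhere.

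The third comparison asked what differed when the 36N form replaced 36S in untreated cells. Hk1 fell in 36N, to 1269, 1607 and 1366 normalized counts against 2372, 2221 and 2350.3 in 36S, which is 1.64-fold lower (log2 fold change -0.72, SE 0.11, adjusted p = 0.0092). It was the only one of 35 genes tested to pass in limma-trend (2.86%), beside 4.56% of all 13137 genes tested, 2.55% higher and 2.01% lower. Its adjusted p was 0.056 in a fit without the mean-variance trend, and the call held in each of 6 fits without 1 library. The log2 ratio of Hk2 to Hk1 was -0.37 ± 0.22 in 36N and -1.18 ± 0.18 in 36S (SD, n = 3 each), and the exact permutation p of 0.1 is the smallest that 3 against 3 libraries allow. Over the 11 pairs of related genes compared, 4 did not overlap between 36N and 36S, and the lowest adjusted p was 0.28.

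Further genes lay near the threshold without passing it, and 13 of the 35 had an unadjusted p under 0.05, as had 20.4% of all genes tested. Aldoc stood at 74.5, 73.3 and 111 in 36N against 142, 163 and 165 in 36S (log2 fold change -0.88, SE 0.22, adjusted p = 0.058), and it passed without 36N library 6. Pfkfb3 stood at 517, 606 and 506 against 702, 852 and 749 (-0.50, adjusted p = 0.065). Ldha stood at 3296, 2899 and 2533 against 4459, 3639.5 and 3766 (-0.45, adjusted p = 0.096). G6pdx stood at 2854, 2814 and 3382 in 36N against 2420.0, 2328 and 2255 in 36S (0.37, adjusted p = 0.099). In these 4 genes the groups did not overlap, as was so for 26.9% of all genes tested. Slc2a1 (-0.47), Tpi1 (-0.45), Gpi1 (-0.34), Aldoa (-0.32), Pkm (-0.24) and Eno1 (-0.20) also lay below 36S in every library without passing. Eno3 (0.67) lay above 36S in every library without passing, and Pfkfb4 (0.64) overlapped. Of the 35 genes 8 had a positive log2 fold change and 27 a negative one. Hk2 (0.09), Hk3 (-0.09), Gapdh (-0.23, 0.028 after quantile normalization) and Hif1a (-0.12) overlapped. The median was -0.14, beside -0.01 over all genes. The KD and 36N comparisons share the 3 libraries of 36S, so their values for Hk1 (-0.87 and -0.72), G6pdx (0.76 and 0.37) and Pfkfb3 (-0.88 and -0.50) are not independent, and no test of KD against 36N was made. Beside these values, monocyte markers were higher in 36N for 5 of 14 genes (sums of 60252 to 67774 against 49127 to 54773), and neutrophil markers were lower for 2 of 12, Mpo and Elane, and higher for 1, Mmp8 (sums of 51753 to 58461 against 69710.5 to 208609, the highest in 36S library 1). Over all genes tested 2.55% were higher and 2.01% lower. The part of these cells in the 36N results was not tested.

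Of the related genes, Vegfa stood at 87.0, 132 and 99.7 in 36N against 407, 493 and 338 in 36S (log2 fold change -1.95, adjusted p = 0.0020), and at 41.3, 67.5 and 23.1 in KD (-3.31, adjusted p = 4.9e-04). Hif3a, a HIF subunit with inhibitory forms, stood at 1.93, 0.818 and 0 in KD against 93.8, 65.8 and 96.2 in 36S. It passed the filter only through 36S and could only be called lower. The counts below stand beside 6.61% of all genes tested that were higher and 4.86% lower in KD. In 36N these shares were 2.55% and 2.01%. Of 17 HIF targets outside glycolysis 1 was higher and 3 were lower in KD, and 1 was higher and 2 were lower in 36N. Of 8 HIF regulators 1 was higher and 1 lower in KD. In limma-trend none of the 8 passed in 36N. Of 12 other pentose phosphate and NADPH genes 2 were higher in KD, Nnt (0.72) and Me2 (0.49), both encoding mitochondrial enzymes, and in 36N 0 passed. Of 9 other sugar transporters and hexose kinases 1, the fructose kinase gene Khk, was higher in 36N (0.73).

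The last comparison asked whether 36N and 36S cells differed when both had TMZ. No difference was called in any of the 37 genes, and 0% of 14246 genes passed in limma-trend, with a lowest adjusted p of 0.9998. An unadjusted p under 0.05 was found for 191 genes, among them 1 of the 37. That gene was Pklr, at 14.0, 3.96 and 5.68 normalized counts in 36N with TMZ against 84.8, 29.1 and 33.0 in 36S with TMZ (log2 fold change -2.49, SE 0.62). Pklr passed the filter only through 36S with TMZ, so its direction was set by the filter. Tkt was the other gene whose groups did not overlap, at 17017, 17387 and 13757 against 18687, 19055 and 20644 (-0.28, SE 0.18). Groups did not overlap for 4.76% of all genes tested. Hk1, called in untreated 36N, stood at 5254, 6811 and 4309 in 36N with TMZ against 5906, 6357 and 5152 in 36S with TMZ (-0.11, SE 0.21). Slc2a3 stood at 4007, 5728 and 4151 against 7011, 7183 and 4608 (-0.43, SE 0.24). Hif1a stood at 4151, 3443 and 3309 against 3361, 2839 and 2136 (0.40, SE 0.21). The remaining named genes had log2 fold changes of -0.32 for Slc2a1, -0.01 for Hk2, -0.23 for Hk3, -0.15 for Gapdh, 0.06 for Pkm, -0.02 for Ldha and 0.07 for G6pdx. Libraries of a group could lie far apart, as Hk3 at 4792, 2302 and 1980 in 36S with TMZ. A p that misses the threshold does not show that the genotypes were alike, and standard errors here ran up to 0.63 (Ldhb).

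The deviations of TMZ libraries from their group means were related across genotypes, which the unpaired fit counts as spread. Those of 36N libraries 4, 5 and 6 correlated with those of 36S libraries 1, 2 and 3 at r of 0.39, 0.45 and 0.35 over 14246 genes, and the other 6 pairs gave -0.24 to -0.12. Genes are not independent replicates, so these are descriptions. The labels pair no 36N library with a 36S one. With a block for the 3 pairs read from these values, an alternative added after seeing the data, 0 of 14246 genes passed in limma-trend, with a lowest adjusted p of 0.455. In that limma-trend fit an unadjusted p under 0.05 was found for 781 of 14246 genes. That share is close to the one this threshold lets through with no difference. Slc2a3, Pklr and Hif1a of the genes described were among the 781. The pairs were chosen from the same values, so this fit gives no independent support for any gene. Several of the genes followed the same order in both groups: Hk2 was highest in 36N library 6 (6646) and in 36S library 3 (6949), and Eno2 was highest in 36N library 4 (145) and in 36S library 1 (154). Slc16a1 was highest in 36N library 5 (2248) and in 36S library 2 (3431).

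**Figure D4:**
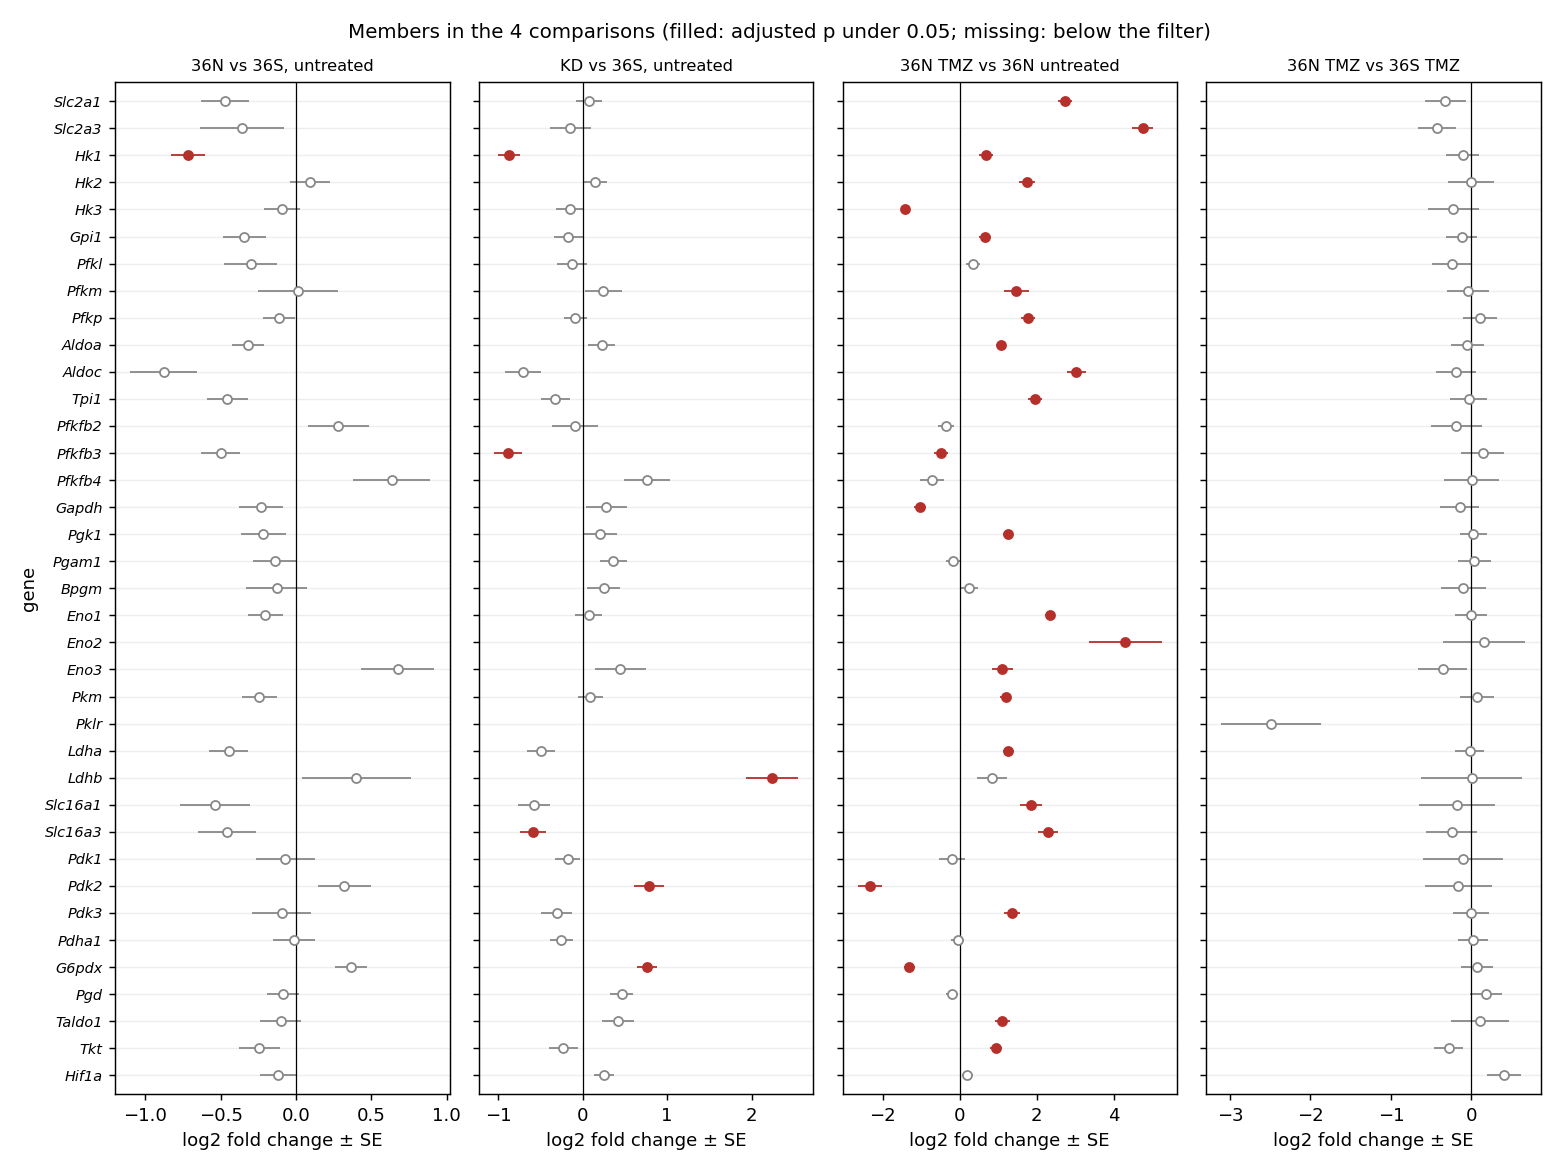
Log2 fold change ± SE of each gene in the 4 comparisons, each panel with its own horizontal scale and named with the tested group over the group it is set against. Filled points passed an adjusted p of 0.05 in limma-trend, and there are 1, 6, 26 and 0 of them from left to right.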

How the data were processed

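The samples, 15 libraries in 5 groups of 3, were assigned from the sample labels. Each deposited value is a normalized signal of 1 gene in 1 library: counts that the authors scaled within a table. Salmon, DESeq2 and the build mm10 are named per the submitters' processing notes, and the sources used here give neither versions nor other steps. Between them the 4 tables held 18075, 18075, 17775 and 19035 genes, and 36S values were identical in both untreated tables (largest difference 0). Whole reads could not be recovered, since at a tolerance of 0.1 the share of low values that were whole was 27.2 to 61.7%. Read depth is therefore unknown, and intervals from counting could not be made. The counting is not stated to use strand, so how reads were divided between copies or overlapping genes is unknown.

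Values were taken as log2(normalized count + 1), and limma-trend (limma 3.58.1, R 4.3.3) was fitted within each table on genes with at least 10 in 3 or more of its libraries, and p-values were adjusted by Benjamini-Hochberg over all genes tested, at a threshold of 0.05. The fits were tested on simulated data. A fold change on this scale understates changes of low genes. Log2 ratios of related genes were compared with a two-sided exact permutation test. Lengths and coordinates are from GENCODE M21 (mm10), in which Aldoa has more than 1 entry. Genes past the threshold are given with every library, and Slc2a1, Hk1, Hk2, Hk3, Gapdh, Pkm, Ldha, G6pdx and Hif1a whatever their values. Related genes and copies shown with values were picked after these were seen. The members and lists were chosen with earlier results of these data known. The alternatives tried were other pseudocounts (0.5 and 5), other filters (none, or at least 50), libraries scaled to equal totals or by quantiles, no trend, a block by library number, all 9 untreated libraries in 1 fit, and each library left out in turn. Undoing the factor between tables, summing near-identical copies, leaving out the TMZ libraries with Ddx3y at 0, and a block for TMZ library pairs read from the data were added after seeing the data. The library numbers were not taken to pair 36N libraries with and without TMZ.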

Additional observations from a re-analysis of the deposited data

How the results depend on the processing

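Of the values for named genes under the alternatives, those that kept their direction and side of the threshold numbered 123 of 126 for untreated 36N against 36S, 162 of 182 for KD against 36S, 394 of 406 for 36N cells with TMZ against untreated ones and 120 of 135 when both genotypes had TMZ. Without the trend, 305 genes and 0 of the 35 described here passed for 36N against 36S. Leaving out each library in turn gave 188 (without 36S library 2) to 508 genes (599 with all 6) and 1 to 2 of those described for 36N against 36S, 591 (without 36S library 2) to 2051 (without KD library 8) genes (1503 with all 6) and 3 to 9 for KD against 36S, and 0 to 1 and 0 for 36N against 36S with TMZ. For 36N against 36S the count moved by over 1.5 times without any one of 36N libraries 4 (362), 5 (276) and 6 (361) or 36S libraries 1 (374) and 2, and for KD against 36S without KD library 7 (965) or 9 (611) or 36S library 2 or 3 (976). In the same leave-outs the log2 fold change of Hk2 for 36N against 36S ranged from -0.0040 to 0.19.

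Signs of small changes turned with the scaling. For 36N against 36S, Gapdh had 0.028 after quantile normalization. For KD against 36S, Slc2a1 had -0.046 with equal totals, Gapdh -0.016 after quantile normalization, and Pkm -0.031 with equal totals and -0.055 after quantile normalization. With the factor between tables undone, Tkt had -0.034 in 36N cells with TMZ against untreated ones. Between 36N and 36S cells that both had TMZ, leaving out libraries gave ranges of -0.28 to 0.049 for Hk1, -0.23 to 0.24 for Hk2, -0.47 to 0.16 for Hk3, -0.28 to 0.074 for Gapdh, -0.048 to 0.16 for Pkm, -0.12 to 0.045 for Ldha and -0.071 to 0.18 for G6pdx, and Ldha had 0.034 after quantile normalization and 0.048 without both libraries that listed Ddx3y at 0.

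The replicate block by library number left 26 of the genes described called for TMZ in 36N and lost Pfkfb3 while Ldhb passed. Deviations of same-numbered libraries correlated at 0.019, 0.037 and 0.086 over 14390 genes, so the numbers are not taken as pairs. With 3 libraries in each group and unknown depth, small changes of genes with values near 0, such as Pklr, could not be resolved.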

Other observations

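Glycogen is the store that feeds glucose phosphate into the same chain. Gbe1, the branching enzyme, stood at 377, 307 and 354 normalized counts in KD against 1186, 1051 and 840.1 in 36S (log2 fold change -1.56, adjusted p = 4.9e-04 in limma-trend). Pygl, a glycogen phosphorylase, stood at 2821, 2805 and 2996 in KD against 2146, 1993 and 1956 in 36S (0.50, adjusted p = 0.025), and at 5144, 4349 and 6252 in 36N with TMZ against 1886, 2194 and 2202 untreated (1.31, adjusted p = 1.8e-04). Of 11 glycogen genes 3 were higher and 3 lower with TMZ, beside 69.7% of all genes tested that passed there. In KD 2 were higher and 1 was lower, beside 11.5%, and in limma-trend none passed for 36N against 36S, where 1 had an unadjusted p under 0.05.

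Among MYC and its partners, Myc stood at 2714, 2062 and 2609.8 in KD against 4264, 4634 and 3524 in 36S (log2 fold change -0.75, adjusted p = 0.016 in limma-trend). With TMZ in 36N, Myc stood at 1644, 1966 and 794 against 3183, 3452 and 2727 untreated (-1.18, adjusted p = 0.011), and Mycn at 406, 146 and 287 against 0, 1.09 and 0. Mycl was lower with TMZ (-6.12). Of 9 genes of this list 4 were higher and 4 lower with TMZ, beside 36.3% and 33.5% of all genes tested. Mycn passed the filter only through its TMZ libraries and could only be called higher.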
